A study of Homo sapiens with 12 samples.

Results

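Transcript levels of 8 genes of the NRF2 system were examined in HLE-B3, a line of human lens epithelium made immortal for culture. The genes are NFE2L2, which encodes NRF2, its relative NFE2L1, the inhibitor KEAP1, the small MAF genes MAFF, MAFG and MAFK, the repressor BACH1 and the target gene NQO1. They were taken by gene name, and all 8 were found among the 58735 genes of the deposited tables. RNA was sequenced in 12 libraries, with 3 libraries in each of 4 groups: wild type (WT) or ATG7 KO, either without treatment at 0 h or after 12 h in 200 μM H2O2. ATG7 encodes an enzyme needed to build autophagosomes, and per the study's methods it was disrupted with CRISPR/Cas9. Since the untreated groups date from 0 h, H2O2 and the added 12 h in culture cannot be told apart. ATG7 KO cells were grown from picked clones after puromycin selection, and the labels do not say which or how many clones were sequenced, or whether replicates came from separate cultures, while the study's methods call them biological replicates. If they were not, the p values measure technical spread only. Loss of ATG7 cannot be told apart from differences between clones or from effects of the selection.

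NRF2 is a transcription factor that switches on genes for detoxification and for the repair of oxidative damage. In resting cells KEAP1, an adaptor of the CUL3 ubiquitin ligase, marks NRF2 for destruction by the proteasome, and oxidants that modify KEAP1 let NRF2 accumulate. To bind DNA at antioxidant response elements (AREs), NRF2 or NFE2L1 must pair with a small MAF protein, and BACH1 pairs with the same partners to silence the same elements. Autophagy touches this circuit through SQSTM1 (p62), an autophagy receptor that also binds KEAP1. Because NRF2 is controlled mainly as a protein, its transcript is only part of its activity. NQO1, a quinone reductase, is a classical readout of NRF2 activity. Lens epithelial cells are exposed to oxidants throughout life and rely on such defences.

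The promoters of the 8 genes were searched for the elements that this system binds. Promoter windows of 300 bases, from 250 before to 50 after a start site, were taken from RefSeq on GRCh38.p14 for 7 of the 8 genes, in 13 windows. The ARE core was searched as TGACNNNGC on both strands and was present in 2 of these 13 windows (15.4%), against 13.3% of all 35116 windows. The related element TGANTCA, which a small MAF dimer or AP-1 can read, was present in 1 of the 13 windows (7.69%) and in 7.71% of all windows. Neither share stands apart from that of all promoters. Among windows of the NRF2 targets listed further below, the ARE core was present in 9 of 26 (34.6%), and this share was not tested. The sites found are shown with 5 bases on each side and the motif in capitals, beside sites of GCLM and TXNRD1, which are textbook NRF2 targets.
KEAP1, chr19:10502812-10502830, minus strand: tattgTGACACGGCgggcg
KEAP1, chr19:10502789-10502807, minus strand: gctctGCTTAGTCAtggtg
GCLM, chr1:93909451-93909469, minus strand: tttctGCTTAGTCAttgtc
TXNRD1, chr12:104286925-104286943, plus strand: tttctGCTTTGTCAttctg
MAFF, chr22:38201867-38201885, plus strand: aggggGCGGGGTCAtacgg
BACH1, chr21:29298869-29298885, plus strand: aggagTGAGTCAcctga
The KEAP1 sites lie at positions -54 and -31 of the second of its 2 windows, and in the GENCODE annotation they fall in an untranslated exon of 1 KEAP1 transcript and in introns of other KEAP1 transcripts. The site at -31 reads the core on the opposite strand, with the same 9 letters as the GCLM site at -34. The MAFF site is at -122, inside an exon of a retained-intron transcript of MAFF, and the BACH1 site is at -48 of the second of its 3 windows, in introns of longer BACH1 transcripts. The TXNRD1 site shown is at -102 of the second of its windows and falls in untranslated exons of other TXNRD1 transcripts. Its first window also held the core, at -99 and -8, and those sites are not shown. The windows of NFE2L1, NFE2L2, MAFG and NQO1 held neither motif, which says only that these letters are not in those windows.

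Library totals over genes ran from 15602183 to 17659496 reads, and each of the 8 genes had at least 330 reads in every library. The lens epithelial marker CDH2 was between 97.9 and 184 FPKM (a level scaled for gene length and sequencing depth) and SIX3 between 1.85 and 3.21 FPKM, while PAX6 did not exceed 1.35 FPKM, and CRYAA, FOXE3 and PROX1 did not exceed 0.0893 FPKM. Only 2 of the 11 lens epithelial markers had a mean above 1 FPKM, and SOX2 was listed at 0 in every library. The blood and endothelial markers PTPRC and PECAM1 did not exceed 0.445 FPKM, while COL1A1, a fibroblast collagen, was between 239 and 645 FPKM and lower with H2O2 in both lines. The summed level of the lens epithelial list was 156 to 187 FPKM in untreated and 104 to 117 FPKM in treated libraries, almost all of it CDH2, and its part in the results below was not tested. Untreated ATG7 KO replicate 1 stood apart: its mean correlation with the other libraries of its group was 0.974, against 0.983 for the other 2 libraries of that group and 0.991 or 0.992 in every other library. Where leaving it out changed a call or moved a called value by over 1.5 times, the value without it is given beside the result. ATG7 itself was at 2.55 ± 0.313 FPKM (SD, n = 3) without treatment in WT and at 3.55 ± 0.205 in the ATG7 KO line. A count over the whole gene cannot show a small edit, so this level does not test the labels.

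The level of the 8 genes spanned a wide range. NFE2L1 was the most abundant and MAFK the least in every group. In untreated WT cells the order by mean FPKM was NFE2L1, KEAP1, MAFG, BACH1, NQO1, NFE2L2, MAFF and MAFK, and BACH1, NQO1 and NFE2L2 overlapped with their neighbours in that order. With H2O2, MAFG, MAFF and NQO1 moved above KEAP1 in WT cells, and these 3 overlapped. In untreated ATG7 KO cells NQO1 already ranked behind NFE2L1, overlapping with KEAP1, and in ATG7 KO cells with H2O2 NQO1, MAFG, MAFF and KEAP1 followed NFE2L1 without any overlap between neighbours. The plot of levels by library shows all 12 values of each gene.

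**Figure D1:**
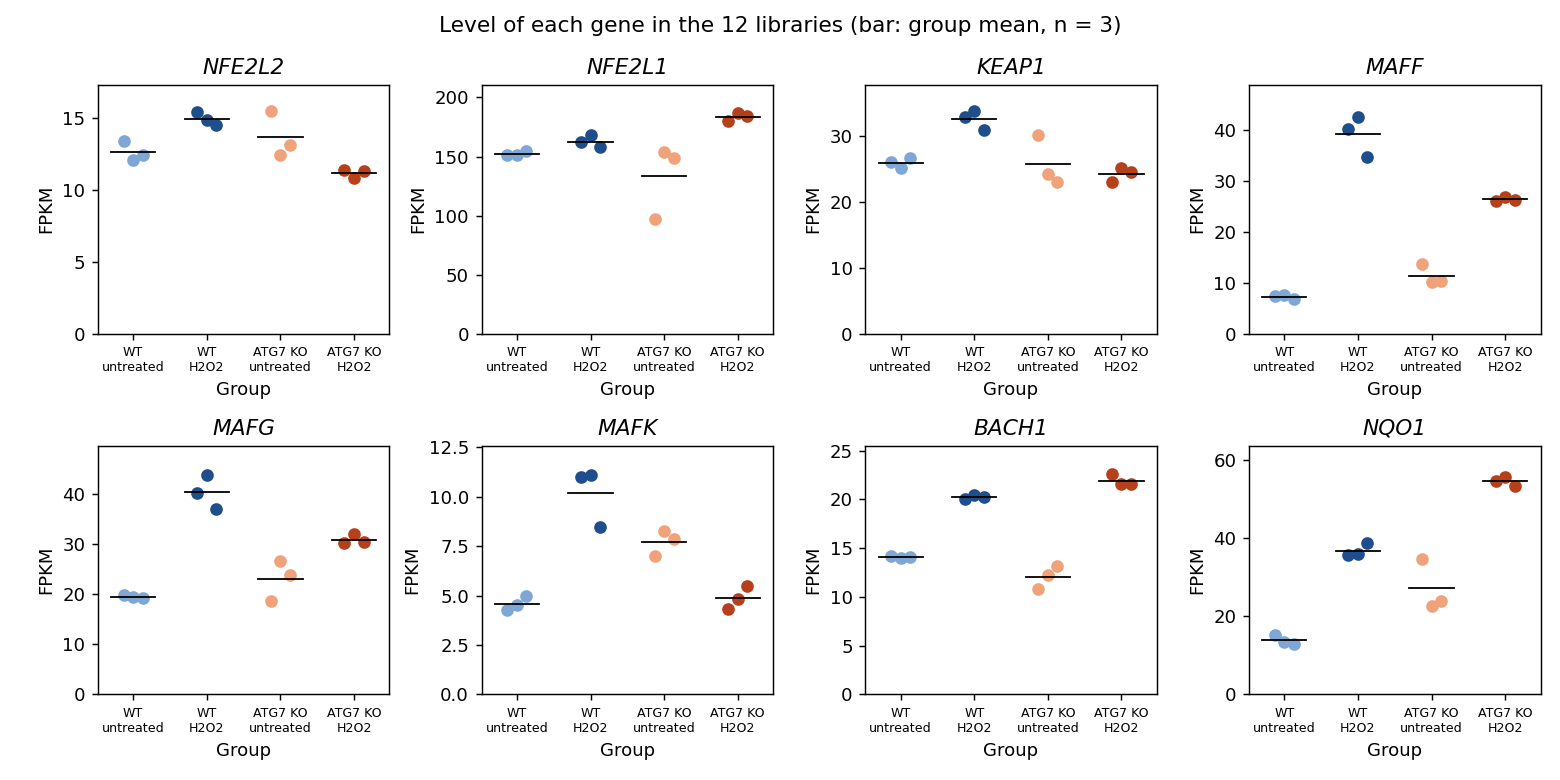
FPKM of each of the 8 genes (vertical axis, from 0) in the 12 libraries, by group (horizontal axis). Points are libraries and bars are group means, n = 3. MAFK is high in WT cells with H2O2 and in untreated ATG7 KO cells and low in the other groups, and NQO1 is higher in ATG7 KO than in WT cells both without and with H2O2.

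Counts were compared between groups with edgeR's quasi-likelihood test, and a gene was called when its Benjamini-Hochberg adjusted p over all genes tested was below 0.01. In WT cells H2O2 raised 7 of the 8 genes and lowered none, where 30.9% of all genes tested were called higher and 30.1% lower. In ATG7 KO cells H2O2 raised 3 of the 8, which were MAFF, BACH1 and NQO1, and lowered MAFK, where 13.6% of all genes were called higher and 12.4% lower. The response differed between the lines for 3 of the 8, MAFF, MAFK and NFE2L2, all less positive in ATG7 KO cells, where 7.02% of all genes had a more positive and 7.01% a less positive response. Between the lines without treatment 2 of the 8 were called higher in ATG7 KO cells, MAFK and NQO1, and none lower, against 4.42% and 3.28% of all genes. After H2O2, NFE2L1 and NQO1 were called higher and NFE2L2, KEAP1, MAFF, MAFG and MAFK lower in ATG7 KO cells, against 27.7% and 27.9% of all genes. Calls were common among all genes in the comparisons of treated cells, so sizes and directions are given gene by gene. Each group enters more than 1 of these comparisons, so they share libraries and do not count as separate evidence. In bulk RNA, fewer cells of a kind and less RNA per cell cannot be told apart. Leaving out untreated ATG7 KO replicate 1 raised the number of calls among the 8 genes and among all genes alike. Between the untreated lines 4 of the 8 were then called, all higher in ATG7 KO cells, where 18.2% of all genes were called higher and 17.9% lower. In the ATG7 KO response 5 rose and 2 fell, against 29.8% and 28.6% of all genes. In the difference of the responses 2 were more and 5 less positive in ATG7 KO cells, against 17.8% and 16.3% of all genes.

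NFE2L2, the gene of NRF2 itself (chromosome 2, 177227595 to 177392697, minus strand), moved little, and in opposite directions in the lines. In untreated WT cells NFE2L2 was at 13.4, 12.1 and 12.4 FPKM in replicates 1 to 3, and with H2O2 at 15.4, 14.9 and 14.5 FPKM. The ATG7 KO libraries were at 15.5, 12.4 and 13.1 FPKM untreated and at 11.4, 10.8 and 11.3 FPKM with H2O2. Every treated WT library thus lay above, and every treated ATG7 KO library below, the untreated libraries of its own line. In WT cells NFE2L2 rose by 0.23 ± 0.05 (log2 fold change ± SE, adjusted p = 0.000161), a call kept in 14 of 16 alternatives and lost in a fit of all 12 libraries (adjusted p = 0.0346) and with limma on log2(FPKM + 0.1) (adjusted p = 0.0166). In ATG7 KO cells the log2 fold change was -0.29 ± 0.1 and was not called (adjusted p = 0.0578), but without untreated replicate 1 NFE2L2 fell by 0.20 on the log2 scale (adjusted p = 0.000269). The difference between the responses was -0.53 ± 0.12 (adjusted p = 0.00667). That call was lost in 9 of the 12 fits that left out 1 library, and over 21 alternatives the adjusted p was at most 0.024. It was kept without untreated ATG7 KO replicate 1 (-0.43, adjusted p = 2.01e-06). After H2O2, NFE2L2 was lower in ATG7 KO than in WT cells, by -0.43 ± 0.05 (adjusted p = 5.89e-09). The protein-coding gene AGPS on the opposite strand overlaps NFE2L2 and had 1206 to 1737 reads, so reads from the overlap cannot be told apart without strand information.

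The gene lists described here and in the following paragraphs were written from general knowledge. Their counts of calls are to be read beside the shares of all genes called, given above for each comparison. Genes around the listed genes on their chromosomes were not examined. Whether a listed gene such as DCAF11 shares a difference between the lines with its stretch of chromosome was not tested. Of 18 NRF2 regulators other than the 8 genes, 5 rose and 9 fell with H2O2 in WT cells (median log2 fold change -0.27, against -0.01 over all genes tested). In that comparison 30.9% of all genes were called higher and 30.1% lower. With H2O2 in the ATG7 KO line 3 rose and 2 fell (median 0.21 against -0.03 over all genes), and without untreated replicate 1 these counts were 6 and 4 and the median was 0.05. SQSTM1 rose in both lines, by 0.66 ± 0.04 in WT (adjusted p = 7.5e-19) and by 0.56 ± 0.09 in ATG7 KO cells (adjusted p = 0.00256). Its response did not differ detectably between them (difference -0.11 ± 0.09, adjusted p = 0.41), nor did its level between the lines after H2O2 (-0.06 ± 0.03, adjusted p = 0.144). CUL3, the scaffold of the KEAP1 ligase, was called in no comparison and its log2 fold changes were between -0.18 and 0.01 in the 4 comparisons of groups. DCAF11, a substrate receptor of another ligase that can act on NRF2, was the only regulator called between the untreated lines (2 higher and 3 lower without untreated ATG7 KO replicate 1). It was higher in ATG7 KO cells by 0.74 ± 0.1 (adjusted p = 0.00347) and fell with H2O2 in both lines, by 0.54 on the log2 scale in WT cells and by 1.01 with ATG7 KO. NFE2L3, a relative of NRF2, also fell in both, by 0.66 and 1.08 on the log2 scale. In WT cells TRIM21, a ubiquitin ligase of p62, rose by 0.63 ± 0.11 (adjusted p = 1.9e-06), and in ATG7 KO cells GSK3B, a kinase that marks NRF2 for degradation, and RXRA, a nuclear receptor that binds NRF2, rose by 0.76 ± 0.17 and 0.72 ± 0.11 (adjusted p = 0.00965 and 0.00245). Between the lines after H2O2, 7 of the 17 regulators tested were higher and 1 lower in ATG7 KO cells, against 27.7% and 27.9% of all genes. CAND1, which exchanges the adaptors of cullin ligases, was higher by 0.56 ± 0.04, PALB2, which can bind KEAP1, was higher by 0.39 ± 0.08, and RBX1, the RING subunit of the KEAP1 ligase, was lower, at -0.5 ± 0.06 (adjusted p = 5.66e-14, 0.000106 and 5.4e-08). In the difference of the responses 2 of the 18 regulators were called, CAND1 (0.62 ± 0.09) and RXRA (0.63 ± 0.12), both with a more positive response in ATG7 KO cells (adjusted p = 0.000559 and 0.00305), and 8 more positive and 3 less positive without untreated ATG7 KO replicate 1.

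NFE2L1 (chromosome 17, 48048329 to 48061487, plus strand) encodes a factor that is held at the endoplasmic reticulum and raises proteasome genes when proteasome capacity is short. In untreated WT cells NFE2L1 was at 151, 151 and 155 FPKM, and with H2O2 at 162, 168 and 158 FPKM. The ATG7 KO libraries were at 97.2, 154 and 149 FPKM untreated and at 180.0, 187 and 184 FPKM with H2O2. Untreated replicate 1 of ATG7 KO was the lowest of all 12 libraries, and the 3 treated ATG7 KO libraries were the highest. NFE2L1 was not called in either response (WT 0.09 ± 0.04, adjusted p = 0.0449, and ATG7 KO 0.45 ± 0.18, adjusted p = 0.0872). Without the low library it rose by 0.26 ± 0.03 in ATG7 KO cells (adjusted p = 4.63e-16) and its response was 0.19 higher than in WT cells (adjusted p = 0.0013, edgeR interaction). After H2O2 it was 0.17 ± 0.03 higher in ATG7 KO than in WT cells (adjusted p = 2.65e-05), a 1.12-fold difference in which the 3 libraries of each group did not overlap. This call was lost in 3 of 16 alternatives, a fit of all 12 libraries with a single spread over the 4 groups (adjusted p = 0.32) and limma on log2(FPKM + 1) or log2(FPKM + 0.1) (adjusted p = 0.0103 and 0.0223).

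Of the 6 genes listed for NFE2L1 processing, FBXW7, a ligase subunit that marks NFE2L1 for degradation, rose by 2.32 ± 0.07 in WT and by 1.92 ± 0.11 in ATG7 KO cells with H2O2 (adjusted p = 1.65e-31 and 3.71e-05). DDI2, the protease that releases NFE2L1, rose by 0.28 ± 0.07 in WT cells, while SEL1L, of the retrotranslocation machinery, and NGLY1, the deglycosylase that edits NFE2L1, fell by 0.66 and 0.49 on the log2 scale. In all, 2 rose and 4 fell in WT cells and 1 rose in ATG7 KO cells, or 2 and 4 without untreated replicate 1. After H2O2, 2 were higher (DDI2, 0.24 ± 0.06, and SEL1L, 0.19 ± 0.05) and 2 lower (FBXW7, -0.32 ± 0.06, and VCP, the segregase, -0.16 ± 0.03) in ATG7 KO than in WT cells. None of the 6 was called in the untreated comparison or in the difference of the responses, where without untreated ATG7 KO replicate 1 there were 2 lower, and 1 more and 1 less positive.

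Proteasome subunits are the main known targets of NFE2L1, and 31 of them were tested. In WT cells with H2O2, 21 rose and 2 fell (median 0.28), led by PSMA6 (0.69 ± 0.14) and PSMA7 (0.55 ± 0.04), with PSMD1 and PSMD11 lower by -0.19 and -0.14. PSMA6 was low, at a mean of 0.908 FPKM in untreated WT cells and 1.48 FPKM with H2O2, against 117 and 172 FPKM for PSMA7. The ATG7 KO response had 0 called at an adjusted p below 0.01 (median -0.21), but without untreated replicate 1, in which PSMA7 was at 273 FPKM against 149 and 146 FPKM in the other 2 libraries, 12 rose and 5 fell (median 0.02). The response was less positive in ATG7 KO cells for 1 of the 31, PSMD2 (-0.43 ± 0.1, adjusted p = 0.00893), and for 11 of the 31 without that library. After H2O2, 5 subunits were higher and 10 lower in ATG7 KO than in WT cells (median -0.08), against 27.7% and 27.9% of all genes. PSMA6 (0.8 ± 0.11) and PSMC6 (0.57 ± 0.04) were the highest, and PSMB7 (-0.62 ± 0.04) and PSMD2 (-0.56 ± 0.03) the lowest. Without treatment PSMB5 (1.33 ± 0.23, adjusted p = 0.00872) and PSMA6 (0.97 ± 0.16, adjusted p = 0.00662) were the 2 called, both higher in ATG7 KO cells, or 8 higher and 2 lower without untreated replicate 1. PSMB5 was at 185 FPKM in untreated ATG7 KO replicate 1 and at 103 and 102 FPKM in replicates 2 and 3, against a mean of 51.6 ± 1.72 FPKM in untreated WT cells. The genes around the subunits on their chromosomes were not examined.

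KEAP1 (chromosome 19, 10486120 to 10503741, minus strand) was at 26.0, 25.2 and 26.6 FPKM in untreated WT cells and at 32.9, 33.8 and 30.9 FPKM with H2O2. With ATG7 KO it was at 30.2, 24.2 and 23.1 FPKM untreated and at 23.1, 25.2 and 24.6 FPKM with H2O2. The treated WT libraries stood above all others, and the ATG7 KO libraries overlapped with and without H2O2. KEAP1 rose in WT cells by 0.32 ± 0.05 (adjusted p = 2.29e-07), a call lost only in the fit of all 12 libraries (adjusted p = 0.0112) of 16 alternatives. It was not called in ATG7 KO cells (-0.09 ± 0.12, adjusted p = 0.565, and 0.03 without untreated replicate 1). The difference of the responses was -0.41 ± 0.13 (adjusted p = 0.0327), and -0.28 with an adjusted p of 0.000734 without that library. After H2O2 KEAP1 was lower in ATG7 KO than in WT cells, at -0.43 ± 0.05 (adjusted p = 2.04e-09), and untreated it did not differ detectably (-0.01 ± 0.12, adjusted p = 0.965, and -0.13 with an adjusted p of 0.0383 without untreated ATG7 KO replicate 1).

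Most genes around KEAP1 were also lower in ATG7 KO cells after H2O2. Among the 20 tested genes on each side, on chromosome 19 from 9810267 to 11262481, 39 of 40 had a negative log2 fold change between the lines after H2O2, 35 were called lower and 1 higher, and their median was -0.78. KEAP1, at -0.43, was thus less negative than 30 of its 40 neighbours. The median of all 1149 tested genes of chromosome 19 was -0.26. Without treatment 36 of the 40 neighbours were below 0 (median -0.3, 5 called lower and none higher), while KEAP1 was at -0.01. In the response of WT cells the neighbours were mixed, with 14 called higher and 14 lower. MAFG had a milder surrounding of the same sign after H2O2 (median -0.27 over 40 neighbours, 18 called lower and 3 higher), close to its own -0.39. NFE2L2, MAFF, MAFK, NFE2L1, BACH1 and NQO1 had neighbour medians between -0.2 and 0.08 in that comparison. NFE2L2 differed from its neighbours' median by -0.5, MAFF by -0.53, MAFK by -0.86 and NQO1 by 0.57. The neighbours were only described, not tested, and what part of the KEAP1 difference belongs to its stretch of chromosome was not tested.

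**Figure D2:**
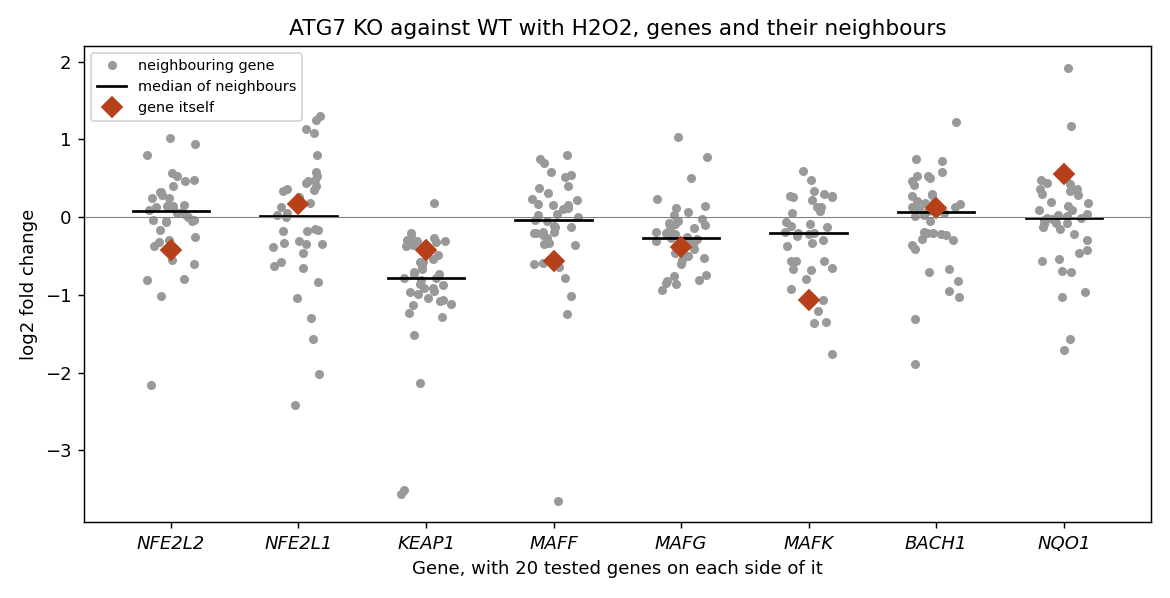
log2 fold change of ATG7 KO against WT cells with H2O2 (vertical axis) for each of the 8 genes (diamonds) and up to 20 tested genes on each side of it (points), with the neighbours' median as a bar. The points around KEAP1 lie below 0 with 1 exception and have a median of -0.78, while NFE2L2, MAFF, MAFK and NQO1 lie away from their neighbours' medians.

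Small MAF proteins bind DNA but have no activation domain of their own, so the abundance of MAFF, MAFG and MAFK bears on what NRF2, NFE2L1 and BACH1 can pair with. MAFF (chromosome 22, 38200767 to 38216511, plus strand) had the largest response of the 8 genes in both lines. It was at 7.33, 7.54 and 6.78 FPKM in untreated WT cells and at 40.1, 42.6 and 34.6 FPKM with H2O2. The ATG7 KO libraries had MAFF at 13.6, 10.1 and 10.3 FPKM untreated and at 26.0, 26.8 and 26.3 FPKM with H2O2. The ATG7 KO libraries thus started above and ended below the WT libraries, with no overlap at either point. MAFF rose 5.39-fold in WT cells (log2 2.43 ± 0.06, adjusted p = 6.18e-23) and 2.31-fold in ATG7 KO cells (1.21 ± 0.13, adjusted p = 0.000462). The difference of the responses was -1.22 ± 0.16 (adjusted p = 0.000252) and was called in all 12 fits that left out 1 library. Between the lines MAFF was at 0.65 ± 0.14 without treatment (adjusted p = 0.0167, and 0.51 with an adjusted p of 2.38e-12 without untreated ATG7 KO replicate 1) and lower in ATG7 KO cells after H2O2, at -0.57 ± 0.06 (adjusted p = 3.75e-08).

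MAFG (chromosome 17, 81918270 to 81927714, minus strand) was at 19.9, 19.5 and 19.2 FPKM in untreated WT cells and at 40.2, 43.9 and 37.0 FPKM with H2O2. With ATG7 KO, MAFG was at 18.7, 26.6 and 23.8 FPKM untreated and at 30.3, 32.0 and 30.4 FPKM with H2O2. Treated libraries were above untreated ones in both lines, by less in ATG7 KO cells. MAFG rose 2.06-fold in WT cells (1.04 ± 0.05, adjusted p = 7.71e-23). Its log2 fold change with ATG7 KO was 0.42 ± 0.14 (adjusted p = 0.0461), and 0.28 ± 0.04 with an adjusted p of 1.53e-10 without untreated replicate 1. The difference of the responses just missed the threshold (-0.62 ± 0.15, adjusted p = 0.0104) and passed it without that library (-0.75, adjusted p = 6.58e-15). Between the lines MAFG was not called without treatment (0.24 ± 0.14, adjusted p = 0.276). Without untreated ATG7 KO replicate 1 it was called higher in ATG7 KO cells (0.37 ± 0.05, adjusted p = 1.36e-11). After H2O2 MAFG was lower in ATG7 KO cells, at -0.39 ± 0.05 (adjusted p = 3.28e-08). The call was lost when the spread was estimated over all 12 libraries (adjusted p = 0.0122). SIRT7, on the same strand, overlaps MAFG and had 510 to 693 reads.

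MAFK (chromosome 7, 1530714 to 1543043, plus strand) was called in opposite directions in the lines. In untreated WT cells MAFK was at 4.29, 4.51 and 4.98 FPKM, and with H2O2 at 11, 11.1 and 8.45 FPKM. With ATG7 KO, MAFK was at 7, 8.25 and 7.84 FPKM untreated and at 4.32, 4.82 and 5.50 FPKM with H2O2. All treated WT libraries were above, and all treated ATG7 KO libraries below, the untreated libraries of their line, and the treated ATG7 KO libraries overlapped with untreated WT in range. MAFK rose 2.21-fold in WT cells (1.14 ± 0.09, adjusted p = 1.09e-12), and with ATG7 KO it fell by 0.66 on the log2 scale (SE 0.12, adjusted p = 0.00528). The difference of the responses, -1.81 ± 0.18 (adjusted p = 4.45e-05), was called in all 21 alternatives, with log2 values between -1.92 and -1.56. Between the lines MAFK was 1.68-fold higher in ATG7 KO cells without treatment (0.74 ± 0.11, adjusted p = 0.00513) and lower after H2O2 (-1.07 ± 0.11, adjusted p = 2.39e-07). The fall in ATG7 KO cells was called in 1 of the 6 fits that left out 1 library, the one without untreated replicate 1 (-0.73, adjusted p = 1.41e-16), and the highest adjusted p over 16 alternatives was 0.0309. Of the 6 such fits of the untreated difference, it too was called in the 1 without that library (0.81, adjusted p = 4.77e-18), with a highest adjusted p of 0.039. Both kept their direction in every alternative. TMEM184A on the opposite strand overlaps MAFK and had 7 to 52 reads, against 330 to 832 for MAFK.

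**Figure D3:**
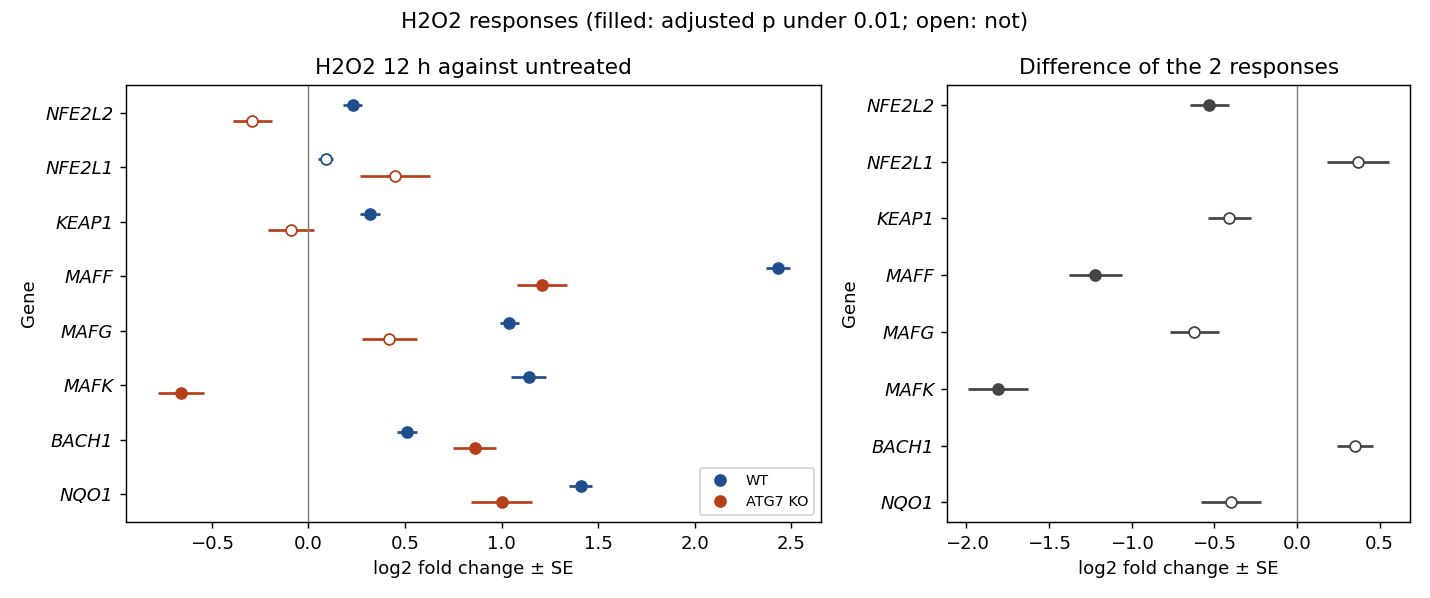
log2 fold change ± SE of each gene with H2O2 in WT and in ATG7 KO cells (left) and the difference of the 2 responses, ATG7 KO minus WT (right), n = 3 libraries per group, with filled points for adjusted p below 0.01. MAFK lies at 1.14 in WT and at -0.66 in ATG7 KO cells, and the differences of MAFK, MAFF and NFE2L2 are filled, at -1.81, -1.22 and -0.53.

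The pool of small MAF transcripts, as summed FPKM of the 3 genes, was 31.3 ± 0.341 in untreated WT cells, 89.6 ± 8.87 in WT cells with H2O2, 42.1 ± 2.79 in untreated ATG7 KO cells and 62.2 ± 1.51 in ATG7 KO cells with H2O2 (SD, n = 3). None of these groups overlapped with the one it was compared with. MAFG made up 62.3 ± 0.732% of the pool in untreated WT cells and 45.1 ± 1.06% with H2O2, while MAFF rose from 23.0 ± 1.02% to 43.6 ± 0.311%. The MAFF share in ATG7 KO cells with H2O2 was 42.4 ± 0.374%, and the MAFK share was 7.85 ± 0.884%, against 11.3 ± 0.75% in WT cells with H2O2 and 18.3 ± 0.451% in untreated ATG7 KO cells. The untreated ATG7 KO group was uneven, with MAFF shares of 34.7%, 22.6% and 24.7%. With 3 libraries against 3 an exact two-sided permutation test cannot give a p below 0.10, and adjusted over the 28 comparisons of shares and ratios the smallest value was 0.13. By that measure no share or ratio was called. The groups did not overlap in 21 of the 28, which is the same outcome as the smallest possible p of 0.10 and adds nothing to it. The 28 comparisons reuse the same groups, and the 3 shares sum to the whole pool, so they are not separate evidence.

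**Figure D4:**
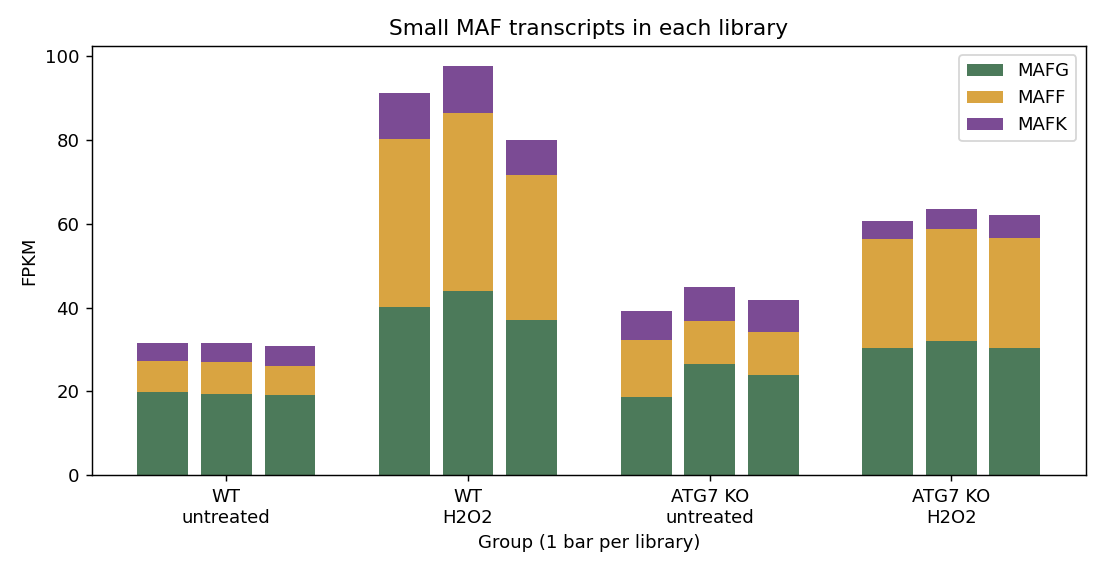
Summed FPKM of MAFG, MAFF and MAFK (vertical axis, stacked from 0), 1 bar for each of the 12 libraries, by group. The bars of WT cells with H2O2 reach 80 to 97.6 and those of ATG7 KO cells with H2O2 60.6 to 63.6, and the MAFK part is the smallest in all libraries.

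BACH1 (chromosome 21, 29194071 to 29630751, plus strand), which competes with NRF2 for small MAF partners, was at 14.2, 14.0 and 14.1 FPKM in untreated WT cells and at 20, 20.4 and 20.2 FPKM with H2O2. The ATG7 KO libraries had BACH1 at 10.8, 12.2 and 13.2 FPKM untreated and at 22.6, 21.6 and 21.6 FPKM with H2O2. ATG7 KO libraries were below WT without treatment and above WT after it, with no overlap. BACH1 rose by 0.51 ± 0.05 in WT (adjusted p = 1.36e-13) and by 0.86 ± 0.11 in ATG7 KO cells (adjusted p = 0.000836). The difference of the responses, 0.35 ± 0.11, was not called (adjusted p = 0.029), and was called without untreated ATG7 KO replicate 1 (0.28, adjusted p = 0.000289). Neither difference between the lines was called (-0.23 ± 0.11, adjusted p = 0.176, without treatment, -0.15 without untreated ATG7 KO replicate 1, and 0.11 ± 0.04, adjusted p = 0.0161, with H2O2). The FPKM ratio of BACH1 to NFE2L2 was 1.12 ± 0.0525 in untreated WT cells and 1.36 ± 0.0504 with H2O2, and 0.894 ± 0.172 and 1.96 ± 0.0469 in ATG7 KO cells. The ratio of NFE2L2 to KEAP1 stayed between 0.427 and 0.565 in all libraries. After H2O2 it was 0.459 ± 0.0168 in WT and 0.46 ± 0.0344 in ATG7 KO cells, since both transcripts were lower in ATG7 KO cells by -0.43. NFE2L1 was 10.9 ± 0.378 times NFE2L2 in WT cells with H2O2 and 16.5 ± 0.829 times in ATG7 KO cells with H2O2.

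NQO1 (chromosome 16, 69706996 to 69726951, minus strand) was at 15.2, 13.3 and 12.9 FPKM in untreated WT cells and at 35.7, 35.8 and 38.6 FPKM with H2O2. With ATG7 KO, NQO1 was at 34.6, 22.7 and 24.0 FPKM untreated and at 54.5, 55.7 and 53.2 FPKM with H2O2. NQO1 was higher in every ATG7 KO library than in every WT library of the same treatment. It rose 2.65-fold with H2O2 in WT cells (1.41 ± 0.06, adjusted p = 6.29e-26) and 2.01-fold in ATG7 KO cells (1.0 ± 0.16, adjusted p = 0.00277). The difference of the responses was -0.4 ± 0.18 and was not called (adjusted p = 0.113). Without untreated ATG7 KO replicate 1 the ATG7 KO response was 1.21 and the difference -0.19 (adjusted p = 0.0339). Between the lines NQO1 was 1.96-fold higher in ATG7 KO cells without treatment (0.97 ± 0.17, adjusted p = 0.00904) and 1.48-fold higher with H2O2 (0.56 ± 0.04, adjusted p = 3.46e-13). The untreated call rested on the choice of libraries. Without untreated ATG7 KO replicate 1 it was 0.77 ± 0.06 (adjusted p = 8.19e-27), and without any other single library it was lost, with adjusted p up to 0.0558 over 16 alternatives. The rise in ATG7 KO cells was called in 2 of the 6 fits that left out 1 library, those without untreated replicate 1 or 2, with an adjusted p of at most 0.0167 over 16 alternatives. The H2O2-treated difference was called in all 16 alternatives. After H2O2 NQO1 and NFE2L1 were thus higher in ATG7 KO than in WT cells, and NFE2L2, KEAP1, MAFF, MAFG and MAFK lower.

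Other targets of NRF2 did not all go with NQO1. Of 32 targets listed besides NQO1, 27 were tested in the response of WT cells, and 19 rose and 2 fell (median 0.47, against -0.01 over all genes). With ATG7 KO, 10 of 31 rose and 1 fell (median 0.18), or 18 and 6 without untreated replicate 1 (median 0.29). HMOX1, haem oxygenase and a gene that BACH1 silences, had the largest rise of the targets above 1 FPKM in both lines, by 2.67 ± 0.07 in WT and 2.06 ± 0.14 in ATG7 KO cells (adjusted p = 1.36e-34 and 8.37e-05). SRXN1, which repairs peroxiredoxins, rose by 1.6 ± 0.13 in WT cells (adjusted p = 6.46e-15) and was not called in ATG7 KO cells (0.42 ± 0.2, adjusted p = 0.131, and 0.24 without untreated replicate 1). GCLM, of glutathione synthesis, rose by 0.88 ± 0.05 and 0.72 ± 0.09, and TXNRD1, thioredoxin reductase, by 0.86 ± 0.04 and 0.67 ± 0.11. SLC7A11, the cystine transporter, rose in WT cells (0.63 ± 0.08, adjusted p = 2.59e-05) and was not called in ATG7 KO cells (0.34 ± 0.18, adjusted p = 0.168), but was without untreated replicate 1 (0.16 ± 0.05, adjusted p = 0.0048). ABHD4, a lipid hydrolase, rose in both lines, by 1.22 ± 0.07 in WT and 1.35 ± 0.13 in ATG7 KO cells, with no detectable difference (0.13 ± 0.15, adjusted p = 0.526). With ATG7 KO, TRIM16L fell by 0.88 on the log2 scale, and it was at -0.08 ± 0.08 in WT cells (adjusted p = 0.369). The difference between its responses was -0.8 ± 0.12 (adjusted p = 0.000519). PIR fell in WT cells, by 0.53 on the log2 scale. With all libraries it was at -1.02 ± 0.26 in ATG7 KO cells and not called (adjusted p = 0.0175). Its responses did not differ detectably (-0.48 ± 0.32, adjusted p = 0.264). The response was less positive in ATG7 KO cells for 5 of the 31 targets and more positive for none (median -0.29 against -0.03 over all genes). SRXN1 (-1.18 ± 0.24, adjusted p = 0.00358) and ABCC3, an export pump (-1.24 ± 0.23, adjusted p = 0.00195), were among them, while HMOX1 was not called (-0.61 ± 0.16, adjusted p = 0.0132) until untreated ATG7 KO replicate 1 was left out (-0.45, adjusted p = 0.00015). Without untreated ATG7 KO replicate 1 these counts were 10 less positive and 3 more positive. ABCC3 was low, at means of 0.366 and 1.4 FPKM in untreated WT and ATG7 KO cells, and 0.627 and 1.02 FPKM with H2O2. It was called higher in ATG7 KO cells untreated (1.93 ± 0.15) and after H2O2 (0.68 ± 0.14). TRIM16L was called higher untreated (1.01 ± 0.09) and not called after H2O2 (0.2 ± 0.08, adjusted p = 0.0248). SRXN1 was not called untreated and was lower after H2O2 (-0.86 ± 0.12).

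Between the lines after H2O2, 13 of the 31 targets tested were higher and 8 lower in ATG7 KO cells (median 0.16 against 0.00 over all genes). Of all genes, 27.7% were called higher and 27.9% lower. GCLM was higher, like NQO1, by 0.56 ± 0.04 (adjusted p = 2.5e-13). SLC7A11 (-0.95 ± 0.11, adjusted p = 0.0004), SRXN1 (-0.86 ± 0.12, adjusted p = 1.89e-07), TXNRD1 (-0.33 ± 0.03, adjusted p = 3.45e-10) and HMOX1 (-0.3 ± 0.05, adjusted p = 4.41e-06) were lower. Without treatment 7 of 30 targets were higher in ATG7 KO cells and none lower (median 0.36 against 0.01), or 15 higher and 3 lower without untreated replicate 1 (median 0.29). GCLM was among those called (0.72 ± 0.1, adjusted p = 0.00311), while HMOX1 (0.32 ± 0.15), SRXN1 (0.32 ± 0.21), TXNRD1 (-0.13 ± 0.11) and SLC7A11 (-0.66 ± 0.18) were not, with adjusted p of 0.186, 0.318, 0.429 and 0.0423. Without untreated ATG7 KO replicate 1 SLC7A11 was called lower (-0.48, adjusted p = 2.51e-15), and HMOX1 was at 0.17, SRXN1 at 0.50 and TXNRD1 at -0.06, none of them called. The largest differences were in the aldo-keto reductases AKR1C1, AKR1C2 and AKR1C3, of which AKR1C2 did not reach a mean of 1 FPKM and is named outside the rule for named genes, after its values were seen. AKR1C1 had 0 reads in all 3 untreated WT libraries and 246, 172 and 150 reads in untreated ATG7 KO cells, at least 190-fold higher against a floor of 3 reads over the WT group. AKR1C2 had 0 reads in those WT libraries and 40, 34 and 41 reads in untreated ATG7 KO cells, at least 38.5-fold higher. AKR1C3 had 2, 5 and 2 reads against 779, 448 and 459, a 188-fold ratio of the summed reads per library total. After H2O2 AKR1C1 had 3, 3 and 5 reads in WT and 384, 385 and 417 reads in ATG7 KO cells (log2 6.66 ± 0.2), and AKR1C3 was at 6.55 ± 0.24. These genes are close copies of one another, so the split of reads between them is uncertain. All of them are among the 7 targets called higher without treatment, and their calls may not be separate. With the 2 genes that had no reads in WT set to their lower bounds, the list's untreated median stayed at 0.36. Both bounds lie above the median, so it could not change.

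The genes most like each of the 8 were taken as the 3 of highest Pearson r of log2(FPKM + 1) over the 12 libraries, among 12558 genes above a mean of 1 FPKM. The libraries fall into 4 groups of 3, so r mostly follows the group means and is a description only. MAFF was most like PMAIP1, a pro-apoptotic BCL2-family gene (r = 0.997), PHLDA2 (0.996) and TRAF4, a TNF receptor adaptor (0.994). MAFK was most like PPM1M, a phosphatase (0.974), ARID5A (0.943) and CSNK1D, a casein kinase (0.935), and MAFG like CCDC86 (0.986), BRD2, a bromodomain protein (0.984), and NT5DC3 (0.983). NQO1 was most like EIF2S1, a translation initiation factor subunit (0.996), TSC22D1 (0.99) and CSF2, a cytokine (0.989). BACH1 was most like the kinases HIPK3 (0.995) and DYRK2 (0.994) and the ubiquitin-conjugating enzyme UBE2H (0.993). NFE2L2 was most like SRSF3, a splicing factor (0.968), HSPB1, a heat shock protein (0.966), and TIMM13 (0.948), and KEAP1 like RAB5C (0.973), DNAJC9 (0.971) and MRPS2 (0.967). For NFE2L1 the 3 genes were DLG5 (0.998), ITPR3 (0.996) and SMG6 (0.99), and these fell to 0.99, 0.989 and 0.959 without untreated ATG7 KO replicate 1. No gene of the 8 was among the 3 most like another.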

How the data were processed

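RNA was sequenced from WT and ATG7 KO HLE-B3 cells in 12 libraries, made with an NEBNext Ultra kit per the labels. The authors deposited raw read counts per gene, and FPKM values that they scaled from these by gene length and library size. The submitters' processing notes name HISAT2 2.0.5, featureCounts 1.5.0-p3 and GRCh38. The strand setting and the handling of reads with several matches are not given in the sources used here, so overlapping genes and close copies may share reads. Columns of per-sample values left without a sample numbered 0.

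Counts were tested with edgeR 4.0.16 in R 4.3.3 (filterByExpr with a minimum count of 10, TMM scaling, robust quasi-likelihood fit), each comparison on its own 6 libraries and the difference of the responses as an interaction over all 12. Calls used an adjusted p below 0.01, as in the study's methods but with no limit on fold change. The standard error is the absolute log2 fold change over the square root of F. The script was tested on simulated data. Levels and ratios used FPKM with Python 3.11.15 and scipy 1.17.1. Library totals were 15602183 to 17659496 reads. The 8 genes and the lists were chosen with earlier results of these data known. Named from each list and comparison were the 2 highest and 2 lowest called genes with a mean above 1 FPKM in at least 1 group, and always HMOX1, GCLM, TXNRD1, SRXN1, SLC7A11, CUL3 and SQSTM1. For 1 gene that this rule names, no values are reported here. Alternatives were DESeq2 1.42.0, RLE and upper quartile scaling, other filters, a replicate block, all 12 libraries in one fit, a gene length correction (lowess span 0.3), limma 3.58.1 on log2(FPKM + 1) or log2(FPKM + 0.1), and each library left out. Counts for the lists under these, and list genes and all-gene shares without untreated ATG7 KO replicate 1, were added after the data were seen.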

Additional observations from a re-analysis of the deposited data

Results flagged for a closer look

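The response to H2O2 differed between the lines by the interaction test for 3 of the 8 genes, with a log2 difference (ATG7 KO minus WT) of -1.81 for MAFK, -1.22 for MAFF and -0.53 for NFE2L2. MAFK rose in WT and fell in ATG7 KO cells, MAFF rose in both, and NFE2L2 rose in WT cells and was not called in ATG7 KO cells. Among the genes named from the lists the difference was also called for ABCC3 (-1.24), SRXN1 (-1.18), TRIM16L (-0.8) and PSMD2 (-0.43). Their response was less positive in ATG7 KO cells. The difference was called too for RXRA (0.63) and CAND1 (0.62), whose response was more positive. Untreated ATG7 KO replicate 1 enters each of these values, and the values of the 3 genes without it were -1.86 for MAFK, -1.07 for MAFF and -0.43 for NFE2L2.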

How the results depend on the processing

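Of 680 log2 fold changes of the 8 genes recomputed under an alternative, 609 kept their direction and side of the threshold, 41 lost and 24 gained a call, and 6 turned sign. None of the 6 values that turned was called. They were KEAP1 between the untreated lines (0.00 with upper quartile scaling, and -0.128 to 0.063 when 1 library was left out), KEAP1 in the ATG7 KO response (-0.164 to 0.029 when 1 library was left out, positive without untreated ATG7 KO replicate 1) and BACH1 after H2O2 (-0.001 with the gene length correction). The difference in the ratio of NFE2L2 to KEAP1 between the lines after H2O2 ran from -0.0169 to 0.0174 when 1 library was left out. Scaling moved the median of all genes by -0.066 at most on the log2 scale.

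Called genes between the untreated lines numbered 2, but 1 with at least 10 counts in every library, 1 with limma on log2(FPKM + 1) or log2(FPKM + 0.1), 3 (with MAFF) with DESeq2, with no filter on low counts, in the fit of all 12 libraries and with the gene length correction, and 0 to 4 when 1 library was left out, 4 without untreated ATG7 KO replicate 1 and 0 without any other library. In the ATG7 KO response the number was 4, and 2 to 7 when 1 library was left out, 7 without untreated ATG7 KO replicate 1 and 2 without ATG7 KO untreated replicate 3 or any H2O2-treated ATG7 KO library. In the difference of the responses it was 3, 5 with DESeq2, and 2 to 7 when 1 library was left out. It was 7 in all fits of this kind for the WT response and for the lines after H2O2, where the fit of all 12 libraries gave 5 in each. The cause of these shifts was not tested. A replicate block gave 0 called genes between the untreated lines and no other change in these counts. The replicate numbers do not pair the libraries, since same-numbered libraries' deviations correlated at -0.0691 to 0.0976 in 18 pairs. Of 680 recomputed counts of called genes in the lists, 154 differed from the reported count by over 1.5 times, 22 of 24 of those without untreated ATG7 KO replicate 1 and 22 of 32 in the fit of all 12 libraries. Of 32 neighbour medians, 19 moved beyond the replicate spread with 10 genes on each side. The median near KEAP1 after H2O2 was then -0.615. Each of the 8 genes had at least 330 reads in every library, and the effect of depth was not tested.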
